A study of Schizosaccharomyces pombe with 4 samples.

Results

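The genes that charge tRNAs and drive translation were followed in fission yeast, Schizosaccharomyces pombe, with and without the gene red2. They were taken by words in the array's own gene descriptions, such as "tRNA synthetase", "translation initiation" or "elongation factor 2"; the rule itself uses no measured value. The words found 79 of 4997 array genes. Of these, 36 are aminoacyl-tRNA synthetases, 9 of them described as mitochondrial, 13 as cytoplasmic and 14 with no compartment. A further 36 are initiation, elongation and release factors not described as mitochondrial, and 2 are mitochondrial factors. The other 5 genes carry one of the words but are neither synthetases nor factors: a kinase of eIF2 alpha, a putative inhibitor of initiation, a protein similar to yeast Sua5, a cofactor of synthetases and a putative tRNA ligase. The words leave out other genes of translation, such as those described as eukaryotic initiation factor 4a and the mitochondrial elongation factors, which are given near the end.

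An aminoacyl-tRNA synthetase joins an amino acid to its tRNA, so that the ribosome can place it by the codon. Initiation factors bring the initiator tRNA and the message to the small ribosomal subunit, elongation factors carry charged tRNA to the ribosome and move it along, and release factors free the finished chain at a stop codon. Mitochondria translate the few messages of their own genome with synthetases and bacterial-type factors that are encoded in the nucleus and imported. Red2, with Red1, belongs to the nuclear machinery that removes meiotic messages from vegetatively growing fission yeast.

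The samples were 2 arrays of wild type (strain FY12806) and 2 arrays of a red2 deletion strain (SP744), both grown logarithmically at 30 °C in rich medium with yeast extract, glucose and adenine. Cy3-labelled material from total RNA was read on 1-colour oligonucleotide arrays, and the mean of both blocks of values of a gene on an array, in log2 of intensity, is called the array value below. Array medians lay between 21231.7 and 22158.1 on the intensity scale. Arrays of the same group correlated at r = 0.9964 or 0.9975 across genes, and arrays of different groups at 0.9338 to 0.9447. Whether replicate arrays stand for separate cultures is not stated in the labels, so p-values cover the spread between these arrays alone, and that spread may be technical. One label of deletion replicate 2 names red3, while its other labels name red2. No table used here ties red2 to an array gene, and the lowest fold change of the array was that of a serine- and proline-rich protein on chromosome I (2603271 to 2604926) with array values of 14.93 and 15.05 in wild type against 5.39 and 4.75 in the deletion. Array names in the headers share a number within each group and differ between groups, so whatever that number stands for and the genotype cannot be told apart.

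Most of the 79 genes differed little between the strains. In the deletion 18 genes rose, 12 fell and 49 did not reach the threshold (two-sided limma test, p adjusted by Benjamini-Hochberg over all array genes and called under 0.05). Of the 18 that rose, 7 are described as mitochondrial and 5 are synthetases with no compartment. Of all array genes 34.0% rose and 29.8% fell, so the 22.8% and 15.2% found here lie below the background of this fit in both directions. The median log2 fold change was 0.01, as over all array genes, and the median size without sign was 0.14 against 0.26. At least 1.5-fold differences that passed the test were found in 5 genes that rose and 1 that fell, where the background was 10.0% and 9.81%. The arrays of the groups did not overlap for 29 genes in the higher direction and 30 in the lower, against 43.4% and 41.2% of all array genes. Without wild type replicate 1 fewer genes fell, both among the 79 and over all array genes. With arrays centred on their median 17 rose and 24 fell, and with the trend of fold change on gene length removed 14 rose and 35 fell. Over all 4997 array genes 1478 rose and 1788 fell with centred arrays, and 28.6% and 35.2% with the length trend removed. Without the length trend the share of the 79 genes that fell was thus above the background, not below it. In RNA from a whole culture, fewer cells that express a gene and less of its RNA per cell cannot be told apart.

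The synthetases that rose were mostly copies other than the one described as cytoplasmic. Of the 13 cytoplasmic-labelled synthetases 2 rose, 2 fell and 9 did not pass, with a median log2 fold change of -0.04. Of the 14 with no compartment 5 rose, 3 fell and 6 did not pass (median 0.11). Of the 9 mitochondrial synthetases 5 rose, 0 fell and 4 did not pass (median 0.19). An unadjusted limma p under 0.05 was found for 7 of the 9, and for 3365 of all 4997 array genes. In this order of classes 15.4%, 35.7% and 55.6% rose, where 34.0% of all array genes rose. The shares that fell were 15.4%, 21.4% and 0.0%, where 29.8% of all array genes fell. The class with no compartment thus rose at about the array-wide share. Once the length trend was removed, 1 of the cytoplasmic-labelled genes rose and 9 fell, 2 of those with no compartment rose and 7 fell, and 3 of the mitochondrial ones rose and 2 fell, beside 28.6% and 35.2% of all array genes.

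**Figure D1:**
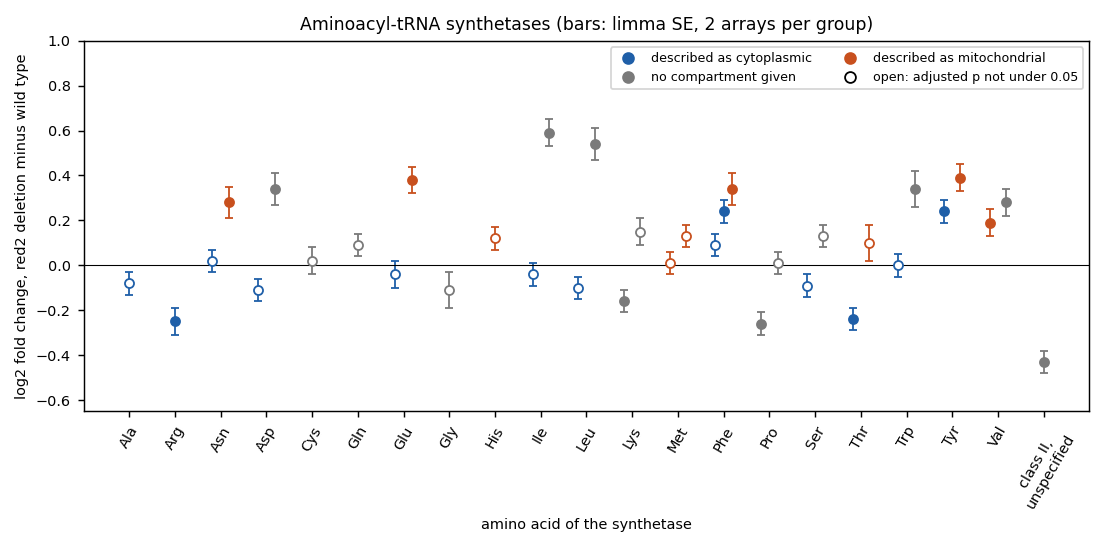
Log2 fold change (red2 deletion minus wild type, vertical axis) of the 36 synthetases, by amino acid, with bars of the limma standard error; colour gives the compartment in the description and open points did not pass the test. For Ile the copy with no compartment stands at 0.59 and the cytoplasmic one at -0.04, and for each of 10 amino acids with a cytoplasmic-labelled gene and another copy the latter stands higher. Lys, Val, Pro and Met have several copies but no such pairing. Their copy with the lower wild-type array value stands higher for Lys and Val and lower for Pro and Met.

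Synthetase genes were found for 20 amino acids, and 14 of these had more than 1 array gene. For 10 amino acids the array carried a gene labelled cytoplasmic beside another copy, which was labelled mitochondrial for Asn, Glu, Phe, Thr and Tyr and had no compartment for Asp, Ile, Leu, Ser and Trp. In all 10 the fold change of the other copy lay above that of the cytoplasmic-labelled gene or genes. Lys, Val, Pro and Met also had more than 1 array gene but no such pairing. There the copy with the lower wild-type array value stood higher for Lys (0.15 against -0.16) and Val (0.28 against 0.19). It stood lower for Pro (-0.26 against 0.01) and Met (0.01 against 0.13). Phenylalanyl-tRNA synthetase has alpha and beta chains in the cytoplasm, which gives 11 pairings, and the difference in log2 fold change ran from 0.09 to 0.65 with a median of 0.34. The pairings were formed after the values had been seen, and 2 arrays against 2 cannot reach a two-sided p under 0.333 in an exact permutation test, so these differences are a description. In 10 of the 11 pairings the difference between the copies was larger on both deletion arrays than on both wild-type arrays. The exception was the mitochondrial Phe gene against the cytoplasmic beta chain, where the difference turned to -0.03 without deletion replicate 2. The other 10 pairings kept their direction in the alternative fits that held both copies; the filter on the dimmest 25% of genes left out a copy for Asp, Glu and Thr. The cytoplasmic-labelled genes had mean wild-type array values of 15.12 to 15.81, close to the top of the scale near 16, and the other copies of 12.63 to 14.79. Across the array, genes with a mean array value above 15.5 had a median log2 fold change without sign of 0.08 and the rest of 0.31. The part of this level in the differences between copies was not tested.

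The largest changes among the synthetases were in Ile and Leu. The isoleucyl-tRNA synthetase with no compartment (chromosome III, 733421 to 736342) had array values of 14.10 and 14.16 in wild type against 14.77 and 14.67 in the deletion. Both deletion arrays lay above both wild-type arrays, and the gene rose 1.51-fold, by 0.59 ± 0.06 in log2 fold change (limma SE, 2 arrays per group, adjusted p = 0.000368). Its cytoplasmic-labelled counterpart (chromosome II, 1291589 to 1294783) stood at 15.63 and 15.57 in wild type against 15.57 and 15.54 in the deletion, with groups that met at 15.57 and a log2 fold change of -0.04 ± 0.05. The leucyl-tRNA synthetase with no compartment (chromosome I, 788756 to 791380) read 13.30 and 13.36 in wild type against 13.94 and 13.80 in the deletion. It rose 1.46-fold (log2 0.54 ± 0.07, limma adjusted p = 0.000792), while the cytoplasmic-labelled leucyl gene stood at -0.10 ± 0.05 and did not pass. The rises of these Ile and Leu genes passed in each alternative fit, and with the length trend removed they stood at 0.28 and 0.25.

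The tryptophanyl, aspartyl and valyl genes with no compartment rose by less than the Ile and Leu genes. The tryptophanyl gene rose by 0.34 ± 0.08, the aspartyl gene by 0.34 ± 0.07 and the valyl gene by 0.28 ± 0.06 in log2 fold change. None of these 3 passed once the length trend was removed (limma adjusted p = 0.0507, 0.103 and 0.577), and the valyl gene turned to -0.04. The valyl call also ended without wild type replicate 2 (limma adjusted p = 0.0524), and the aspartyl call on the first block alone (0.129). The array span of the tryptophanyl gene overlaps that of a neighbouring array gene, described as a mitotic spindle protein. The seryl copy with no compartment had log2 0.13 ± 0.05 and the lysyl gene on chromosome III 0.15 ± 0.06, and neither passed.

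Among cytoplasmic-labelled synthetases, the tyrosyl gene and the beta chain of the phenylalanyl enzyme rose and the arginyl and threonyl genes fell. Array values of the tyrosyl gene were 15.31 and 15.34 in wild type against 15.54 and 15.59 in the deletion (log2 0.24 ± 0.05, limma adjusted p = 0.00647). The beta chain also rose by 0.24 ± 0.05, and its partner the alpha chain, with which it forms the enzyme, had log2 0.09 ± 0.05 and did not pass. Arginyl-tRNA synthetase fell by 0.25 ± 0.06 and threonyl-tRNA synthetase fell by 0.24 ± 0.05. Without wild type replicate 1 the tyrosyl, arginyl and threonyl genes did not pass (limma adjusted p = 0.0537, 0.0629 and 0.068), and on single blocks the arginyl (first, 0.243) and threonyl (second, 0.0829) genes did not. The beta chain did not pass without wild type replicate 2 (0.0512) or on the first block (0.0901), and stood at 0.07 after removal of the length trend. The alanyl, asparaginyl, aspartyl, glutamyl, isoleucyl, leucyl, seryl and tryptophanyl genes of this class lay between -0.11 and 0.02 and did not pass.

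The synthetases that fell outside the cytoplasmic-labelled class had no compartment. A putative class II synthetase of unnamed amino acid (chromosome III, 1981126 to 1982204) read 13.53 and 13.55 in wild type against 13.07 and 13.14 in the deletion, without overlap. It fell by 0.43 ± 0.05 in log2 fold change (limma adjusted p = 0.000781), by 0.27 in the first block and 0.60 in the second. The gene described as proline-tRNA synthetase (chromosome II, 2282102 to 2283379) fell from 14.44 and 14.38 to 14.14 and 14.16 (log2 -0.26 ± 0.05, limma adjusted p = 0.00531). The prolyl-tRNA synthetase, the other Pro gene, had log2 0.01 ± 0.05, so for Pro the copy that changed was lower. The lysyl gene on chromosome II fell by 0.16 ± 0.05, a call that 9 of the alternative fits ended. The proline gene did not pass without wild type replicate 1 (limma adjusted p = 0.0503) or on the first block alone (0.0629). The cysteinyl, glutaminyl and glycyl genes, each the single array gene of its amino acid, stood at 0.02, 0.09 and -0.11 and did not pass.

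Among the 79 genes, those described as mitochondrial passed the test in 1 direction, higher. Of 11 such genes, 9 synthetases and 2 factors, 7 rose and 0 fell, 63.6% against a background of 34.0% higher and 29.8% lower. Their median log2 fold change was 0.28, against 0.01 over all array genes. Array values did not overlap in the higher direction for 9 of the 11, against 43.4% of all array genes. With the length trend removed 5 rose, 2 fell and the median was 0.15, where 28.6% of all array genes rose and 35.2% fell. The median length of the 11 genes was 1581 bp, against 1194 bp over the array, and the mean array value of 10 of the 11 was below 15.5. The part of length and level in these counts was not tested further.

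Mitochondrial initiation factor IF-2, a GTPase that places the initiator tRNA on the mitochondrial ribosome, changed most. Its gene (chromosome II, 254087 to 256147) had array values of 14.04 and 13.87 in wild type against 14.74 and 14.68 in the deletion. The groups stood clearly apart, with a rise of 0.75 ± 0.07 in log2, 1.69-fold (limma adjusted p = 0.0003), and 0.74 and 0.76 in the separate blocks. Mitochondrial peptide chain release factor 1, which frees the chain at stop codons (chromosome I, 580460 to 582029), read 13.46 and 13.45 in wild type against 14.13 and 14.02 in the deletion. It rose 1.54-fold (log2 0.62 ± 0.06, limma adjusted p = 0.000283), without overlap. Both factors passed in each alternative fit, and with the length trend removed they stood at 0.53 and 0.47.

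The 5 mitochondrial synthetases that rose did so by less. The tyrosyl gene went from 14.31 and 14.22 in wild type to 14.63 and 14.69 in the deletion, a rise of 0.39 ± 0.06 in log2. The glutamyl gene had the lowest values of the synthetases, 12.67 and 12.58 in wild type against 13.06 and 12.95 in the deletion (log2 0.38 ± 0.06). The tyrosyl gene passed in each alternative fit, and the glutamyl gene in each but the filter on the dimmest 25% of genes, which left it out. The phenylalanyl gene read 13.57 and 13.49 in wild type against 13.77 and 13.95 in the deletion (log2 0.34 ± 0.07), and did not pass on the first block alone (limma adjusted p = 0.0744). The asparaginyl gene read 14.79 and 14.78 against 15.15 and 14.97 (log2 0.28 ± 0.07), and its call ended once the length trend was removed (limma adjusted p = 0.114). The valyl gene read 15.38 and 15.31 against 15.59 and 15.48 (log2 0.19 ± 0.06, limma adjusted p = 0.0345). In all 5, which were taken because they passed the test, both deletion arrays lay above both wild-type arrays, as for 43.4% of all array genes. The valyl call ended without wild type replicate 1 (0.062), wild type replicate 2 (0.185) or deletion replicate 1 (0.0888), and its value turned to -0.13 with the length trend removed.

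The remaining mitochondrial synthetases did not pass. They were the histidyl gene at 0.12 ± 0.05, the threonyl gene at 0.10 ± 0.08 and 2 methionyl genes at 0.13 ± 0.05 and 0.01 ± 0.05. The first of the methionyl genes is described as mitochondrial and also as similar to MES1, which in Saccharomyces cerevisiae encodes the cytoplasmic enzyme, so its compartment is unclear. The histidyl gene is the only one the words found for its amino acid, so whether it serves mitochondria alone is unclear too. After removal of the length trend these methionyl genes stood at -0.15 each, past the threshold.

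**Figure D2:**
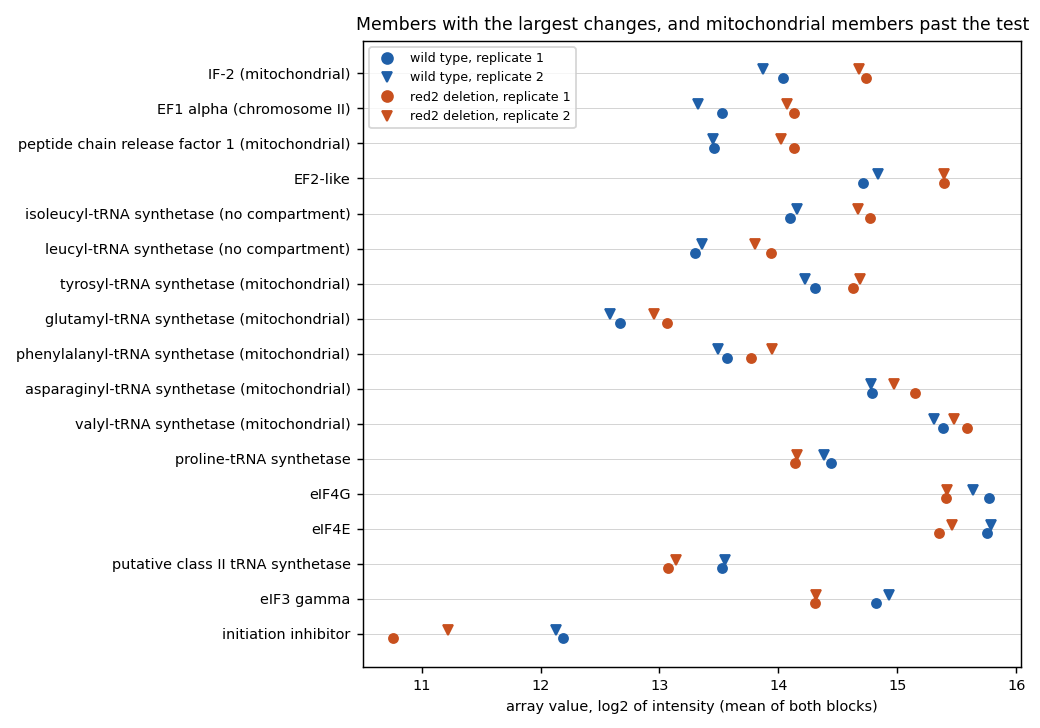
Array values (log2 of intensity, mean of both blocks) on the 4 arrays for the 6 genes that rose most, the 6 that fell most and the mitochondrial genes that passed the test, ordered by fold change. For mitochondrial IF-2 the wild-type arrays stand at 14.04 and 13.87 and the deletion arrays at 14.74 and 14.68. The 6 genes at each end were drawn only from genes past the test without overlap, so their lack of overlap follows from that choice. The other mitochondrial genes shown do not overlap either, but they too were taken only from genes past the test. Of all array genes 43.4% did not overlap in the higher direction.

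Few of the initiation factors not described as mitochondrial passed the test, and those that did were lower. Of 27 initiation factors 0 rose, 5 fell and 22 did not pass (median log2 fold change -0.04). An unadjusted limma p under 0.05 was found for 8 of the 27, and for 3365 of all 4997 array genes. The shares of 0.0% and 18.5% stand against 34.0% and 29.8% of all array genes. After removal of the length trend 3 rose and 10 fell, where 28.6% and 35.2% of all array genes did. Of these factors 16 had a mean of the 4 array values above 15.5, close to the top of the scale.

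**Figure D3:**
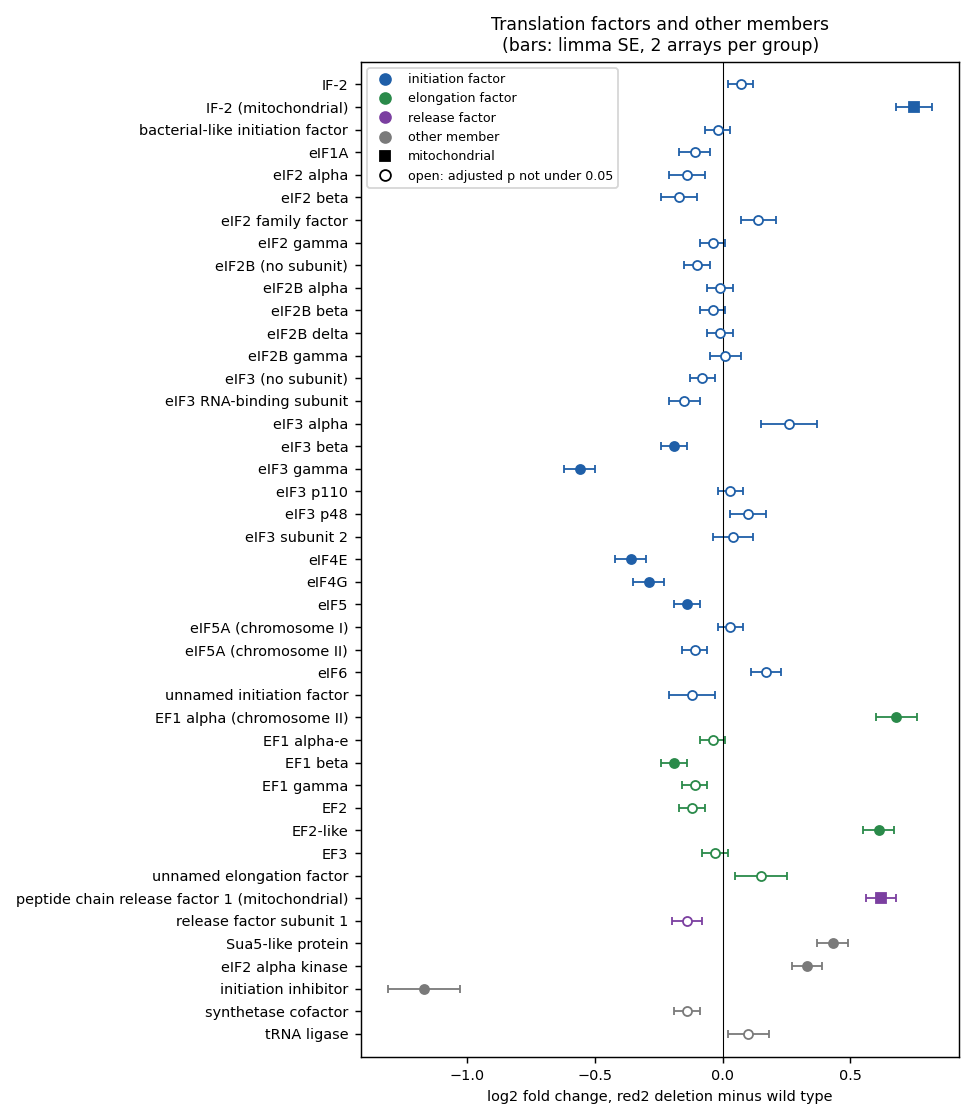
Log2 fold change (red2 deletion minus wild type, horizontal axis) of the 38 factors and the 5 other genes, with bars of the limma standard error; squares are mitochondrial and open points did not pass the test. The mitochondrial factors stand at 0.75 and 0.62, eIF3 gamma at -0.56, and the subunits of eIF2 and eIF2B between -0.17 and 0.01.

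The lowest of these 27 initiation factors was a single subunit of eIF3, the large complex that holds the small subunit ready for the message. The gene described as translation factor sui1, which the words left out and which is given near the end, stood lower (log2 -0.67 ± 0.05). The eIF3 gamma gene (chromosome II, 185073 to 186597) read 14.82 and 14.93 in wild type against 14.31 and 14.32 in the deletion, without overlap. It fell by 0.56 ± 0.06 on the log2 scale, 1.47-fold (limma adjusted p = 0.000426), and in each alternative fit. Of the 8 eIF3 genes only the beta subunit also passed, at -0.19 ± 0.05, and it did not without wild type replicate 1 (limma adjusted p = 0.185) or replicate 2 (0.0502). The other 6 lay between -0.15 for the RNA-binding subunit and 0.26 for the alpha subunit and did not pass. The eIF3 alpha gene had the widest spread of these, with 13.06 and 12.78 in wild type against 13.28 and 13.09 in the deletion. It rose in some of the alternatives, by 0.40 without wild type replicate 1 (limma adjusted p = 0.00571) and by 0.36 without deletion replicate 2 (0.0346), and stood at 0.13 without wild type replicate 2. The group median was -0.02.

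The cap-binding factor eIF4E and its partner eIF4G fell too. The gene of eIF4E, the cap-binding protein (chromosome I, 3520330 to 3521188), read 15.75 and 15.79 in wild type against 15.35 and 15.46 in the deletion. It fell by 0.36 ± 0.06 (limma adjusted p = 0.00244), and in each alternative fit. The gene of eIF4G, the scaffold that joins eIF4E to the small subunit (chromosome I, 4453294 to 4457505), read 15.77 and 15.64 in wild type against 15.41 and 15.42 in the deletion. It fell by 0.29 ± 0.06 (limma adjusted p = 0.00718), by 0.11 in the first block and 0.46 in the second. The call of eIF4G ended on the first block alone (limma adjusted p = 0.346) and without wild type replicate 1 (0.0555).

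None of the genes of eIF2 and eIF2B passed the test, but some did in alternative fits, as lower. The eIF2 complex brings the initiator tRNA to the ribosome, and eIF2B exchanges its GDP for GTP. The alpha, beta and gamma subunits of eIF2 stood at -0.14, -0.17 and -0.04, and the 5 array genes of eIF2B between -0.10 and 0.01, with 0 of these 8 genes past the test. Of eIF2, 1 subunit had an unadjusted limma p under 0.05, and of eIF2B none had. The standard errors were 0.05 to 0.07 on the log2 scale. For each eIF2 subunit both deletion arrays lay below both wild-type arrays, as for 41.2% of all array genes. Once the length trend was removed, eIF2 gamma (log2 -0.14) and the eIF2B gene with no named subunit (-0.35) passed. With arrays centred on their median, eIF2 alpha, eIF2 beta and the same eIF2B gene passed as lower. The eIF2 beta gene also passed without the dimmest 25% of genes and on the second block alone. Under quantile normalization that eIF2B gene passed too. The absence of calls here thus depended on the setting. A gene of the eIF2 family with no closer description had log2 0.14 ± 0.07.

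The gene of eIF5, which makes eIF2 hydrolyse its GTP, fell by 0.14 ± 0.05, from 15.04 on both wild-type arrays to 14.89 and 14.90. That small change passed at a limma adjusted p of 0.038 and did not when any array but deletion replicate 2 was left out (0.0642 to 0.213) or on either block alone (0.158 and 0.14). The eIF5A genes of chromosomes I and II, which have the same length of 474 bp and whose probes could share signal, stood at 0.03 ± 0.05 and -0.11 ± 0.05. The genes of eIF1A (-0.11), eIF6 (0.17; passed without deletion replicate 2 at an adjusted p of 0.0205 in limma), IF-2 without a compartment (0.07), an unnamed initiation factor (-0.12) and a protein with low similarity to bacterial initiation factors (-0.02) did not pass.

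Of the elongation factors, those near the top of the scale moved little and 2 with lower array values rose. Of 8 elongation factor genes 2 rose, 1 fell and 5 did not pass (median -0.03), beside 34.0% higher and 29.8% lower over the array. The gene described as elongation factor 1 alpha on chromosome II (2553542 to 2555417) read 13.53 and 13.32 in wild type against 14.13 and 14.07 in the deletion. It rose 1.60-fold, by 0.68 ± 0.08 in log2 fold change (limma adjusted p = 0.000788), by 0.95 in the first block and 0.40 in the second. An elongation factor 2-like protein (chromosome III, 289912 to 293014) read 14.71 and 14.84 in wild type against 15.39 on both deletion arrays. It rose 1.53-fold (log2 0.61 ± 0.06, limma adjusted p = 0.000394), and with the length trend removed by 0.29. Both rises passed in each alternative fit. Probes of related elongation factor 1 alpha genes could share signal.

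The genes described as elongation factor 1-alpha-e, 2 and 3 lay at the top of the scale, with array values of at least 15.77. Elongation factor 1-alpha-e, which carries charged tRNA to the ribosome, read 15.96 and 15.97 in wild type against 15.91 and 15.95 in the deletion (log2 -0.04 ± 0.05). Elongation factor 2, which moves the ribosome along the message, read 15.88 and 15.93 against 15.77 and 15.81 (log2 -0.12 ± 0.05, limma adjusted p = 0.083). Elongation factor 3, a fungal ATPase of the elongation cycle, read 15.94 on both wild-type arrays against 15.90 and 15.92 in the deletion (log2 -0.03 ± 0.05). In all 3 the deletion arrays lay below the wild-type arrays by small amounts that did not pass. Of all array genes 41.2% did not overlap in that direction. Of the subunits of the complex that exchanges the GDP of elongation factor 1 alpha, the beta gene fell by 0.19 ± 0.05 (limma adjusted p = 0.0214) and the gamma gene had -0.11 ± 0.05. The beta call ended without wild type replicate 1 (0.17) or replicate 2 (0.06), on either block alone (0.0914 and 0.0808), and with the length trend removed (0.246). After removal of the length trend, elongation factors 1-alpha-e, 1-gamma, 2 and 3 passed at -0.15, -0.25, -0.41 and -0.35. A putative elongation factor with no number had log2 0.15 ± 0.10, with 14.83 and 14.72 in wild type against 15.07 and 14.78 in the deletion.

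Release factor subunit 1 of the cytosol, which reads stop codons, read 15.78 and 15.76 in wild type against 15.69 and 15.56 in the deletion. Its log2 fold change of -0.14 ± 0.06 did not pass (limma adjusted p = 0.0847), while the mitochondrial release factor rose. The difference between both was not tested.

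The 5 genes that are neither synthetases nor factors included the largest change of all 79. A putative translation initiation inhibitor (chromosome I, 5432115 to 5432551) read 12.19 and 12.13 in wild type against 10.76 and 11.22 in the deletion. Both deletion arrays lay well below wild type but apart from each other, and the gene fell by 1.17 ± 0.14 on the log2 scale, 2.26-fold (limma adjusted p = 0.000837). At 437 bp it is among the short genes, and with the length trend removed it stood at -0.92. The protein similar to Sua5, which in Saccharomyces cerevisiae acts in a modification of tRNA, rose by 0.43 ± 0.06 (13.80 and 13.68 in wild type, 14.21 and 14.12 in the deletion). The kinase of eIF2 alpha, an enzyme class that holds back initiation by phosphorylating eIF2, rose by 0.33 ± 0.06 (limma adjusted p = 0.00447), but stood at 0.03 with the length trend removed (0.702). The synthetase cofactor (-0.14 ± 0.05) and the putative tRNA ligase (0.10 ± 0.08) did not pass.

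Fold change went with gene length across the array, and array values of many of these genes lay near the top of the scale. The Spearman correlation between length and log2 fold change was 0.44 across the 4997 array genes and 0.29 across the 79, a description over genes that share arrays and are not independent. The 79 genes had a median length of 1596 bp and the array 1194 bp. The mean of the 4 array values was above 15.5 for 35 of the 79 genes, 44.3%, and for 644 of all array genes, 12.9%, a line drawn after the values had been seen. Of those 35 genes 0 rose, 7 fell and 11 had an unadjusted limma p under 0.05. Of the 644, 56 rose, 97 fell and 192 had such a p. Of the other 44 genes 18 rose and 5 fell, 40.9% and 11.4%, against 37.7% and 31.9% of array genes at the same levels. With the length trend removed, 11 of the 18 genes that rose still rose and 11 of the 12 that fell still fell. Of all array genes, 1166 of the 1699 that rose and 1164 of the 1487 that fell did so.

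**Figure D4:**
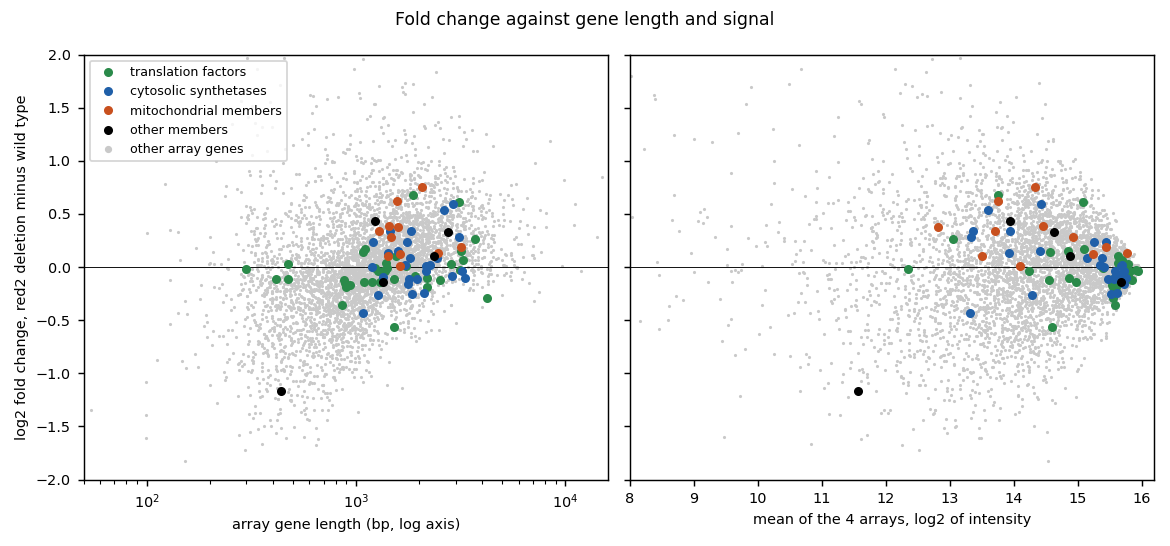
Log2 fold change (vertical axes, red2 deletion minus wild type) against array gene length (left, log axis) and the mean of the 4 array values (right) for the 79 genes in colour and other array genes in grey; 84 array genes lie outside the plotted range. The 35 genes with a mean above 15.5 crowd at the right edge with fold changes from -0.36 to 0.13, and the initiation inhibitor is the lowest of the 79 at -1.17.

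Related genes of tRNA and translation were drawn from other words of the descriptions. Of 13 genes of tRNA processing and modification 5 rose, 5 fell and 3 did not pass (median -0.09), which is 38.5% in each direction against 34.0% and 29.8% over the array. A subunit of the tRNA-splicing endonuclease fell by 0.78 ± 0.06, a probable tRNA methyltransferase by 0.62 ± 0.07 and a putative tRNA nucleotidyltransferase, which adds the end of the tRNA that is later charged, by 0.52 ± 0.05. A putative cytidine methyltransferase similar to yeast Ncl1 rose by 0.60 ± 0.05, the dimethylguanosine methyltransferase by 0.41 ± 0.05 and a protein like Pop1, a subunit of RNase P, by 0.29 ± 0.08. With the length trend removed 2 of the 13 rose and 7 fell, and the Pop1-like gene did not pass (limma adjusted p = 0.513).

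Of 16 other translation genes 4 rose, 3 fell and 9 did not pass (median 0.0), beside 34.0% higher and 29.8% lower over the array. Those that fell were the gene described as translation factor sui1, which helps choose the start codon (log2 -0.67 ± 0.05), the mitochondrial elongation factor Ts (-0.57 ± 0.07) and the small subunit of the nuclear cap-binding complex (-0.37 ± 0.06). The highest were the large subunit of that complex (0.41 ± 0.07), a mitochondrial elongation factor G (0.33 ± 0.06) and a possible elongation factor (0.31 ± 0.06), and neither the first nor the last of these passed once the length trend was removed. The mitochondrial elongation factors did not all share the direction of mitochondrial IF-2: factor Ts fell, both genes of factor G rose (0.33 and 0.24, of which the latter stood at -0.05 after removal of the length trend) and factor Tu stood at 0.0 ± 0.06. The eukaryotic initiation factor 4a genes, which encode an RNA helicase, stood at -0.08 and 0.01, and the polyadenylate-binding protein at -0.11 ± 0.05.

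The genes lay on all 3 chromosomes, and in 1 of 7 pairs of close neighbours both genes passed the test. On chromosome I 6 of 37 genes rose and 5 fell, on II 5 of 26 rose and 5 fell, and on III 7 of 16 rose and 2 fell, beside the 34.0% and 29.8% of all array genes. Within 10000 bp of each other lay 7 pairs of neighbours. In 1 pair, the mitochondrial phenylalanyl and the aspartyl synthetase on chromosome III, with 2 array genes and 7378 bp between them, both members rose, by 0.34 each. In the others at most 1 member passed, as for the mitochondrial release factor (0.62) and the cytoplasmic tryptophanyl gene (0.0), 9731 bp apart. Whether neighbours shared changes was not tested.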

How the data were processed

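The authors deposited linear intensity values, and the submitters' processing notes name RMA for them without a version. The sources used here name no steps, settings or genome build, and coordinates are as deposited. All 9994 intensity lines were equal in the authors' pair tables and their table of all arrays. The deposited ratio of deletion to wild type equalled the quotient of intensities on all lines to within 1e-06. Intensities reached 65027.6.

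The log2 of the deposited intensities was averaged over 2 blocks per gene, whose meaning the sources do not give, and tested with limma 3.58.1 (R 4.3.3; lmFit, eBayes, genotype as the only term) on 4 arrays, with Benjamini-Hochberg adjustment over 4997 genes and a threshold of 0.05. No pseudocount or filter was applied. Depth has no equivalent here, and the number of arrays limits precision. The fit was tested on simulated data.

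Groups were read from sample titles. The genes and lists were chosen with earlier results of these data known. Array values on every array were given for the 6 highest and 6 lowest genes past the test without overlap, mitochondrial genes past it, elongation factors 1-alpha, 2 and 3 and release factors. Of the other pathway lists up to 3 in each direction were named by that rule, and eukaryotic initiation factor 4a, the polyadenylate-binding protein and the other mitochondrial elongation factors after their values were seen.

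Alternatives were quantile normalization, centring every array on its median, a filter that drops the dimmest 25% of genes, an offset of 32 under the log2, the replicate block, the deposited pair ratios, each array left out, either block alone, the trend on gene length or on signal removed (loess, span 0.5), a trend or robust prior, adjusted p under 0.01, and at least 1.5-fold.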

Additional observations from a re-analysis of the deposited data

How the results depend on the processing

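Of the 30 genes past the test, 13 kept their call and direction in every alternative fit at the same threshold that held them, 9 of them higher and 4 lower. No such count over all array genes is given here, so whether these genes kept calls more often than others was not tested. The filter on the dimmest 25% of genes held 71 of the 79 genes and left out 3 of these 13: the initiation inhibitor, the class II synthetase and the mitochondrial glutamyl gene. Genes that rose numbered 18, went from 15 to 21 when single arrays were left out, and to 5 with at least 1.5-fold asked for. Genes that fell numbered 12, with 4 to 16 over arrays left out, 4 of these without wild type replicate 1, 24 with arrays centred on their median, 5 on the first block alone, 35 with the length trend removed, 22 with a trend prior, 7 at adjusted p under 0.01 and 1 with at least 1.5-fold. Synthetases not described as mitochondrial are counted together here, and those with no compartment, 5 of the 7 that rose, may include mitochondrial ones. Those that rose (7) numbered 5 to 8 over arrays left out, 3 with the length trend removed and 1 at 1.5-fold. Such synthetases that fell (5) numbered 1 to 6 over arrays left out, 8 when centred, 2 and 3 on the first and second block, 16 without the length trend, 3 at 0.01 and 0 at 1.5-fold. Factors not described as mitochondrial that rose (2) numbered 2 to 5 over arrays left out, 4 with the replicate block, the pair ratios or a trend prior, and 5 without the length trend. Such factors that fell (6) numbered 2 to 9 over arrays left out, 14 when centred, 2 on the first block, 15 without the length trend, 13 with a trend prior, 3 at 0.01 and 0 at 1.5-fold. Mitochondrial genes that rose (7) numbered 6 to 7 over arrays left out and 2 at 1.5-fold, and those that fell (0) numbered 2 without the length trend. Over all array genes 1699 rose and 1487 fell in the main fit, 1481 and 1315 on the first block, and 1519 and 1310 on the second. When centred 1478 and 1788 did, without the length trend 1427 and 1761, and with a trend prior 1773 and 1612. The thresholds and the 1.5-fold rule lower counts by construction, and for the other settings the cause was not tested.

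Removing the length trend was the setting that turned directions. The valyl-tRNA synthetases went to -0.128 (mitochondrial) and -0.041 (no compartment). Genes not past the test before turned and passed: IF-2 (-0.254), the asparaginyl cytoplasmic (-0.152), cysteinyl (-0.238), glutaminyl (-0.194) and prolyl (-0.227) synthetases, both mitochondrial methionyl genes (-0.154 and -0.146), eIF3 p110 (-0.279), the bacterial-like factor (0.235) and eIF5A of chromosome II (0.147). The replicate numbers of the titles do not pair the arrays by any label, and deviations of the replicate 1 arrays from their group means had a correlation of -0.041 across genes. With the replicate block, as with the pair ratios, 20 genes rose and 10 fell: eIF3 alpha (0.26, limma adjusted p = 0.00737) and eIF6 (0.17, 0.0419) passed as higher, and eIF5 (0.0685) did not pass. Leaving an array out leaves a lone array in its group, which is assumed to vary like the other group. Whether intensity near the top of the scale limits what the brightest genes can show was not tested.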
